A study of Homo sapiens with 4 samples.

Results

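The genes described here encode the main heat shock proteins of the cytosol and the mitochondrial matrix, together with the transcription factor that induces them. They are HSPA1A, HSPA1B, HSPA8, HSP90AA1, HSP90AB1, HSPB1, HSPH1, HSPD1, HSPE1 and HSF1, and they were listed by name, with no threshold on a measured value. All 10 were found among the 60606 genes of the count table. Of these, 8 passed the filter on low counts, which left 19349 genes in all, and HSPA1A and HSPA1B had no count in any library.

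DaroR cells are a line derived from LNCaP, an established androgen receptor-positive prostate cancer line, by growth in rising concentrations of the antiandrogen darolutamide up to 10 µM. The study asked what the long noncoding RNA LOC730101 does in these resistant cells. Polyadenylated RNA was sequenced from 2 libraries of DaroR cells given a control siRNA (siControl) and from 2 libraries given a pool of siRNAs against LOC730101 (siLOC730101), each at 20 nM. Both groups were the same resistant line, kept in RPMI medium with serum, and per the study's methods in 10 µM darolutamide as well, so the drug does not differ between them. DaroR is a single derived line, and parental LNCaP cells were not analysed here. The labels do not say whether the replicates came from separate cultures, so the p-values measure only the spread between these libraries, which may be technical.

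Heat shock proteins are molecular chaperones that bind unfolded proteins and use ATP, or in the case of small heat shock proteins simple binding, to keep them from aggregating. In unstressed cells HSF1 is held inactive by chaperones; when unfolded proteins occupy those chaperones, HSF1 forms trimers and binds heat shock elements, which are inverted repeats of the unit GAA. Steroid receptors, the androgen receptor among them, pass from HSP70 to HSP90 while they fold into the form that binds hormone, which is why these chaperones are much studied in prostate cancer.

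Heat shock elements are shown first because they are the sequence feature that ties HSF1 to the other members. RefSeq promoter windows on GRCh38.p14, reaching from 250 bases before to 50 bases after a transcription start, were present for 9 members, 13 windows in all. They were searched on both strands for a pair of units (GAANNTTC or TTCNNGAA) and for 3 units in a row (GAANNTTCNNGAA or TTCNNGAANNTTC), and every match to the longer motif contains matches to the shorter one. Pairs were present in 7 of the 13 windows and the 3-unit motif in 4, whereas of all 35116 promoter windows 13.5% held a pair and 0.490% held 3 units. By gene, 7 members had a pair and 4 had 3 units. HSP90AA1, HSP90AB1 and HSPD1 had several windows, for alternative starts, and in each gene only a single window held matches. The windows of HSPH1 and HSPE1 held neither. For each of the 7 members the 3-unit match nearest to the start is printed or, where none was present, the nearest pair. Sequences run 5′ to 3′ along the gene, with the units in capitals. The stretches lie at chr6:31815426-31815455 on the plus strand (HSPA1A), chr6:31827622-31827651 on the plus strand (HSPA1B), chr11:123062170-123062199 on the minus strand (HSPA8), chr14:102087111-102087140 on the minus strand (HSP90AA1), chr6:44247823-44247852 on the plus strand (HSP90AB1), chr7:76302480-76302509 on the plus strand (HSPB1) and chr2:197500059-197500088 on the minus strand (HSPD1).
HSPA1A: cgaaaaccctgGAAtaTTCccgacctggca
HSPA1B: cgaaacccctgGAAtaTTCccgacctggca
HSPA8: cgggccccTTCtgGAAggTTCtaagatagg
HSP90AA1: gagggttcTTCcgGAAggTTCgggaggctt
HSP90AB1: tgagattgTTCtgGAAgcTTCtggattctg
HSPB1: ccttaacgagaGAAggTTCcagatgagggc
HSPD1: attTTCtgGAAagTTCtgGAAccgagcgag

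The matches began between 55 bases (HSPA8) and 240 bases (HSPD1) before the transcription start of the window that held them. HSPD1 and HSPE1, which encode the chaperonin and its lid, are transcribed away from each other, and the HSPD1 element ends 299 bases before the RefSeq start of HSPE1, just outside the HSPE1 window. A match of letters describes the sequence and does not show that HSF1 was bound in these cells.

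A second set of sequences is shown because the study linked LOC730101 to the microRNA miR-1-3p. Its mature sequence in RefSeq is printed with the seed, bases 2 to 8, in capitals.
hsa-miR-1-3p: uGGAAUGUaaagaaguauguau
Sites pairing with the seed were sought in the 3′ UTR of 1 reference transcript (MANE Select) per gene on GRCh37. A site of 8 bases is ACATTCCA, and a site of 7 bases lacks either its last base (the 7mer-m8 form) or its first base (the 7mer-A1 form). Such sites were present in 3 of the 10 members, while 22.2% of the 13357 tested genes with such a UTR had at least 1. The 3 sites lie at chr13:31709777-31709806 on the minus strand (HSPH1), chr2:198351521-198351550 on the minus strand (HSPD1) and chr2:198368007-198368036 on the plus strand (HSPE1), and the site is in capitals.
HSPH1: tttaaagctaacacttCATTCCAtctagac
HSPD1: ataaaaaacatttgtACATTCCtgatactg
HSPE1: tcaacatgatgctgccCATTCCActgaagt

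HSP90AA1 and HSP90AB1 each had 1 site of only 6 bases (CATTCC), and the other 5 members had none. The 3 members with longer sites had log2 fold changes after siLOC730101 of 0.03 (HSPH1), -0.01 (HSPD1) and 0.28 (HSPE1). None was lower beyond the spread between libraries.

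The libraries held between 39213498 and 53368158 counts. LOC730101, listed as ENSG00000216775 at chromosome 6, 52664366 to 52669155 (GRCh38), was read 2560 and 2370 times in the siControl libraries and 633 and 680 times in the siLOC730101 libraries. Its log2 fold change was -1.56 (SE 0.12, adjusted p = 4.34e-06, edgeR quasi-likelihood test with Benjamini-Hochberg adjustment), so the targeted RNA was lower in both treated libraries. Summed over 8 luminal prostate markers, the level was 6305 to 7060 CPM (the count scaled to a common library size) in siControl and 6752 to 7011 CPM in siLOC730101. Summed markers of other cell types were far lower in every library, 11.0 to 14.8 CPM for 4 fibroblast genes (COL1A2 and LUM at 0), 5.84 to 9.44 CPM for 3 endothelial genes (CDH5 at 0), 2.76 to 3.79 CPM for 3 neuroendocrine genes (CHGA at 0), 0.195 to 0.632 CPM for 3 basal genes (KRT5 and TP63 at 0) and at most 0.158 CPM for 4 immune genes (PTPRC and CD3E at 0). Across all genes, 0.284% passed an adjusted p of 0.05 in the edgeR test, and 10.8% had an unadjusted p under 0.05.

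None of the 8 heat shock transcripts tested passed the adjusted threshold after LOC730101 knockdown, and their most abundant members were nearly level between the groups. HSPE1 and HSPB1, the shortest transcripts of the set, had the 2 highest estimates, and in both the difference came mainly from 1 siLOC730101 library. DESeq2 also called 0 members, against 3.12% of the 9525 genes to which it gave an adjusted p. With either tool 1 member, HSPE1, had an unadjusted p under 0.05. The median log2 fold change of the 8 members was 0.02, with 6 estimates above 0, beside a median of -0.002 and 49.6% above 0 over all genes tested. In HSPA8 and HSPE1, 2 of the 8, both siLOC730101 libraries were higher than both siControl libraries, a separation in one direction or the other that 41.7% of all tested genes also had.

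**Figure D1:**
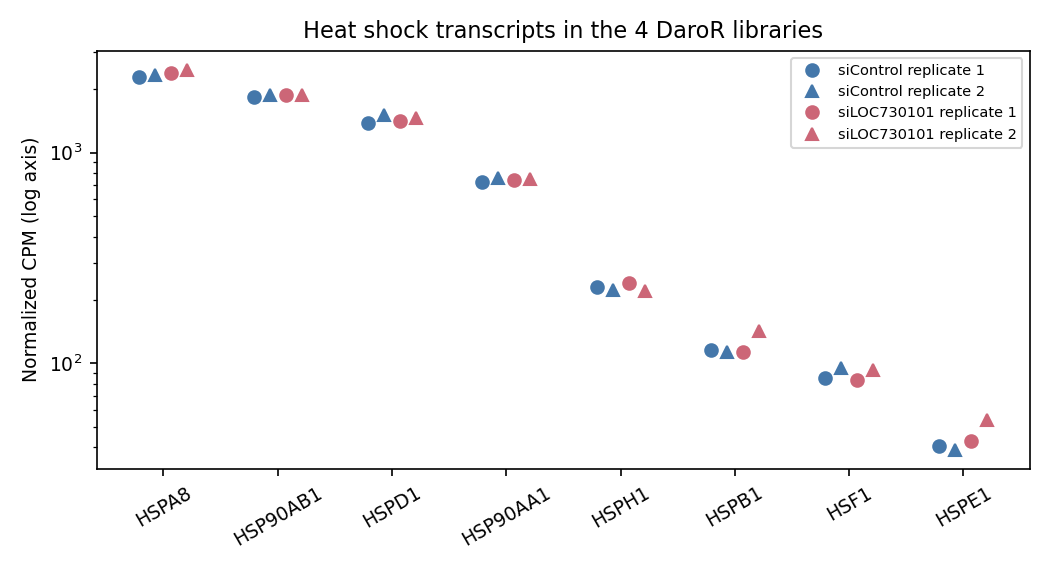
Normalized CPM (log axis) of the 8 measured heat shock genes in each library, with circles for replicate 1, triangles for replicate 2, blue for siControl and red for siLOC730101. Within each gene the points lie close together, the widest gap being the higher siLOC730101 replicate 2 of HSPE1 (53.7 CPM) and HSPB1 (142.6 CPM).

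Levels between genes were compared per kilobase of merged exons, a length that includes every annotated isoform and so understates genes with long rare ones. HSP90AB1, the constitutive cytosolic HSP90, was highest on this scale at 627 ± 7.32 CPM per kb (SD over the 4 libraries, as for the levels that follow). HSPA8, the constitutive cytosolic HSP70 often called HSC70, followed at 489.6 ± 17.3 CPM per kb. The mitochondrial chaperonin HSPD1 (189 ± 7.21 CPM per kb) and the inducible cytosolic HSP90, HSP90AA1 (146 ± 2.60 CPM per kb), came next. HSPB1, the small heat shock protein HSP27, was at 74.6 ± 8.87 CPM per kb. HSPH1, which encodes HSP110, and HSPE1, the chaperonin lid, were not separated by their spread, with ranges of 26.4 to 28.8 and 21.4 to 29.5 CPM per kb. HSF1 was lowest at 16.9 ± 1.11 CPM per kb. This order depends on the length used. HSPA8 had more CPM than HSP90AB1 in every library and a shorter reference transcript (2264 against 2555 bases). By that length HSPA8 would rank above HSP90AB1. Merged and reference lengths also lay far apart for HSPD1 (7629 and 2245 bases) and HSPE1 (1823 and 557 bases). By reference length HSPE1 would lie above HSPH1 (8391 and 5244 bases), and HSF1 (5305 and 2134 bases) would overlap HSPH1. The members together took 0.679% to 0.705% of all counts. Their summed level was 6700 and 6973 CPM in siControl and 6924 and 7072 CPM in siLOC730101, 2.36% higher on average, and the groups overlapped (exact permutation test, two-sided, p = 0.667, the smallest possible being 0.333). Scaling by library size alone turned this difference to -0.28%.

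HSPA1A and HSPA1B encode the stress-inducible HSP70, the classical marker of heat shock. Both were listed at 0 in all 4 libraries, as was HSPA1L beside them. A count of 0 allows up to 3 counts per library, equal to 0.0555 to 0.0790 CPM, and this limit covers counting error only. It limits reads assigned to these genes, not their RNA. HSPA1A lies at chromosome 6, 31815543 to 31817946, and HSPA1B at 31827738 to 31830254 (GRCh38). Genes on either side were read well, LSM2 with 829 to 1017 counts, SNHG32 with 575 to 888 and VARS1 with 9663 to 13142. Of 30 genes within 100 kb of the pair, these 2 among them, 15 had no count in any library and 11 passed the filter.

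The coding sequences of HSPA1A and HSPA1B on GRCh37 were 1926 bases each and 99.8% identical, with 4 differing bases, no differing residue among 641, and an identical run of 1709 bases. Their last 30 coding bases are printed to show how little separates the pair, with the differing bases in capitals.
HSPA1A: tcaggcccCaccattgaggaggtAgattag
HSPA1B: tcaggcccTaccattgaggaggtGgattag
Of all 100-base windows along each transcript, 72.4% in HSPA1A and 68.9% in HSPA1B had an exact copy elsewhere in GRCh37. The counting program leaves out reads with several equally good positions unless told otherwise, and its recorded command holds no option to keep them. In addition, 36.6% of the merged exon length of HSPA1B is shared with ENSG00000285565, also at 0. The rest of each transcript has no exact copy, and the part of copies in these zeros was not tested. The level of HSPA1A and HSPA1B in DaroR cells therefore has no estimate here, and neither does its response to LOC730101 knockdown.

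**Figure D2:**
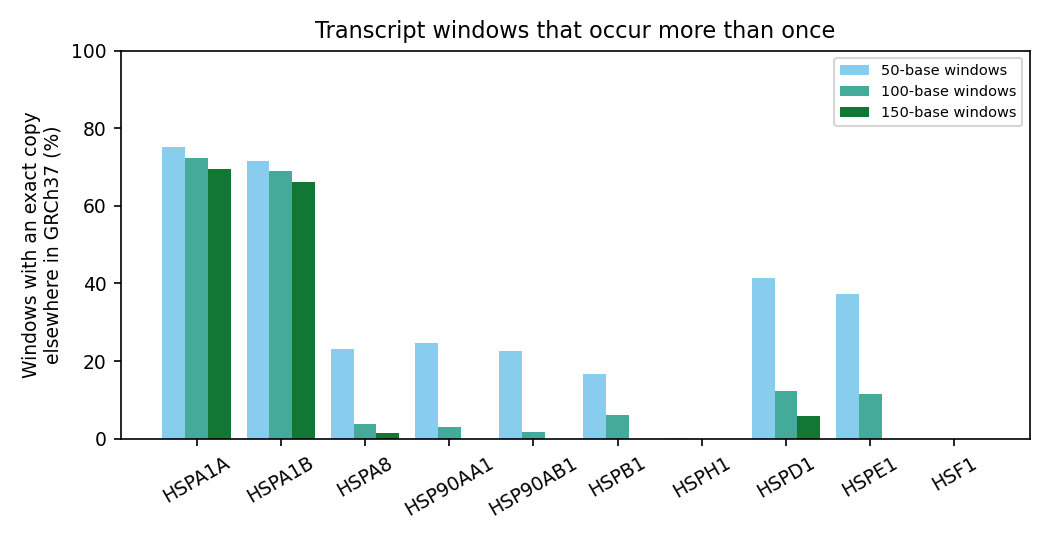
Share (%) of 50-, 100- and 150-base windows along each member's reference transcript that occur exactly elsewhere in GRCh37, as bars starting at 0. HSPA1A and HSPA1B lie between 66.1% and 75.1% at every length, whereas the other members fall to at most 5.82% at 150 bases.

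HSPA8 (chromosome 11, 123057489 to 123063230) binds client proteins co-translationally and also hands them to HSP90 and to lysosomes. It had 2278 and 2346 CPM in siControl and 2396 and 2477 CPM in siLOC730101. Both treated libraries were above both controls, by a small margin. The log2 fold change was 0.08 (95% interval -0.06 to 0.21, adjusted p = 0.729, edgeR). SnoRNA genes SNORD14C and SNORD14D and an antisense gene, ENSG00000288061, share 15.1% of its exon length, and these had 12 counts or fewer in any library. All 17 of its annotated processed copies together reached at most 0.102% of its count, HSPA8P14 having the most (10 to 63 counts). Reads that fit a copy equally well would be left out of both counts, so this share does not measure them.

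HSPH1 (chromosome 13, 31134973 to 31162388) is a relative of HSP70 that speeds the exchange of ADP for ATP on it. Its levels were 231 and 224 CPM in siControl and 242 and 222 CPM in siLOC730101, so the groups overlapped. The log2 fold change was 0.03 (95% interval -0.14 to 0.19, adjusted p = 0.951, edgeR), and its sign turned under upper-quartile scaling and under scaling by library size. HSPH1 had no processed copy and almost no repeated window, 0.212% at 50 bases. The ratio of HSPA8 to HSPH1, both per kb, was 17.0 and 18.1 in siControl and 17.2 and 19.3 in siLOC730101.

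The cytosolic HSP90 pair hold kinases and steroid receptors in a state that can be activated. HSP90AA1 (chromosome 14, 102080742 to 102139699) had 728 and 758 CPM in siControl and 744 and 752 CPM in siLOC730101. HSP90AB1 (chromosome 6, 44246166 to 44253888) had 1836 and 1881 CPM in siControl and 1881 and 1876 CPM in siLOC730101. The treated libraries lay within the control range for HSP90AA1 and at its upper end for HSP90AB1. The log2 fold change was 0.01 for HSP90AA1 (95% interval -0.13 to 0.15, adjusted p = 0.984) and 0.02 for HSP90AB1 (95% interval -0.12 to 0.15, adjusted p = 0.965), by edgeR. Either sign turned under upper-quartile and library-size scaling. The ratio of the constitutive gene to the inducible one, both per kb, was 4.28 ± 0.05 in siControl and 4.29 ± 0.04 in siLOC730101 (SD, n = 2 each), the tightest ratio of the 3 examined. Its size depends on the merged lengths, 2980 bases for HSP90AB1 and 5097 for HSP90AA1. The reference transcripts, 2555 and 3228 bases, would give a lower ratio. At 50 bases, 24.6% of the windows of HSP90AA1 and 22.5% of those of HSP90AB1 had copies elsewhere, mostly lost at 100 bases (3.07% and 1.71%).

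HSPD1 and HSPE1 encode HSP60 and HSP10, the barrel and the lid that together fold proteins imported into mitochondria. HSPD1 (chromosome 2, 197486584 to 197516737, minus strand) had 1386 and 1515 CPM in siControl and 1422 and 1455 CPM in siLOC730101. The treated libraries fell between the controls, and the log2 fold change was -0.01 (95% interval -0.16 to 0.13, adjusted p = 0.977, edgeR). HSPE1 (chromosome 2, 197500140 to 197503449, plus strand) had 40.42 and 39.01 CPM in siControl and 42.9 and 53.7 CPM in siLOC730101. Both treated libraries were above both controls, but the second stood well above the first. The log2 fold change of HSPE1 was 0.28 (95% interval 0.04 to 0.52, unadjusted p = 0.0250, adjusted p = 0.356, edgeR), and it did not pass the threshold. Without siLOC730101 replicate 1 it was 0.44 (adjusted p = 0.00562, edgeR), and without siLOC730101 replicate 2 it was 0.11 (adjusted p = 0.957). Each of these fits leaves siLOC730101 with 1 library, which is assumed to vary like the siControl pair, so the small p is no call on replicates.

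The ratio of HSPD1 to HSPE1, both per kb, was 8.19 and 9.28 in siControl and 7.93 and 6.48 in siLOC730101. Both treated ratios were below both control ratios, and the nearest values of the 2 groups, 7.93 and 8.19, lay closer together than the replicates of either group. The exons of the pair overlap on opposite strands by 135 bases, and those of HSPE1 overlap the readthrough gene HSPE1-MOB4, which had no count, by 192 bases, in all 17.9% of its exon length. HSPE1 has 26 annotated processed copies, which together reached at most 1.19% of its count, the highest such share among the members. Reads that fit a copy and the gene equally well would be left out of both counts. Such a share therefore cannot show how many reads the copies cost. At 50 bases 41.3% of HSPD1 windows and 37.2% of HSPE1 windows had an exact copy elsewhere, and at 100 bases 12.4% and 11.6%. The part of copies in the levels of the pair, and so in their ratio, was not tested.

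**Figure D3:**
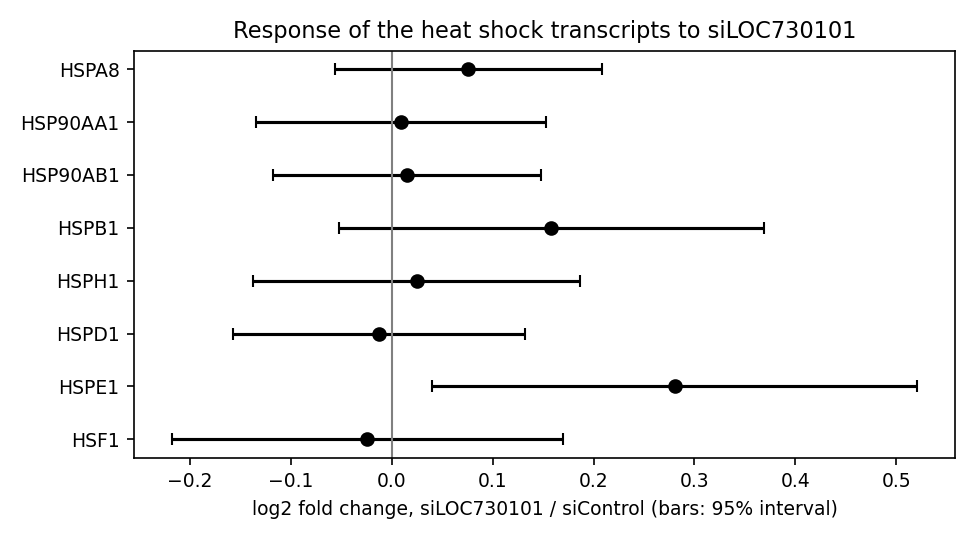
Log2 fold change (siLOC730101 over siControl) of each measured member, points with bars for the 95% interval of the edgeR fit. The interval of HSPE1 (0.04 to 0.52) is the one that leaves out 0 before adjustment, and the other 7 include it.

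HSPB1 (chromosome 7, 76302673 to 76304295) is the small heat shock protein HSP27, which forms large oligomers that hold unfolded proteins without ATP. It had 115.6 and 113.2 CPM in siControl and 112.9 and 142.6 CPM in siLOC730101. The first treated library was slightly below both controls and the second was above them, so the groups overlapped. The log2 fold change was 0.16 (95% interval -0.05 to 0.37, adjusted p = 0.612, edgeR). It was 0.33 without siLOC730101 replicate 1 (adjusted p = 0.00504, edgeR) and -0.02 without siLOC730101 replicate 2 (adjusted p = 0.995), again with the lone library assumed to vary like the siControl pair.

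Replicate 2 of siLOC730101 was above replicate 1 by 0.32 for HSPE1 and 0.34 for HSPB1 on the log2 CPM scale, in contrast to -0.05 and -0.03 between the siControl replicates. Short genes in general moved the same way in that pair of libraries. Over genes with a mean normalized count above 50, the median difference of replicate 2 minus replicate 1 in siLOC730101 was 0.12 for the 4746 genes with up to 3696 bases of exon, 0.02 for the middle 4744 genes and -0.05 for the 4743 longest. In siControl the same medians were 0.03, 0.004 and -0.02. HSP90AB1, also in the short class, differed by -0.004 between the siLOC730101 replicates. The part of length in the HSPE1 and HSPB1 estimates was not tested.

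**Figure D4:**
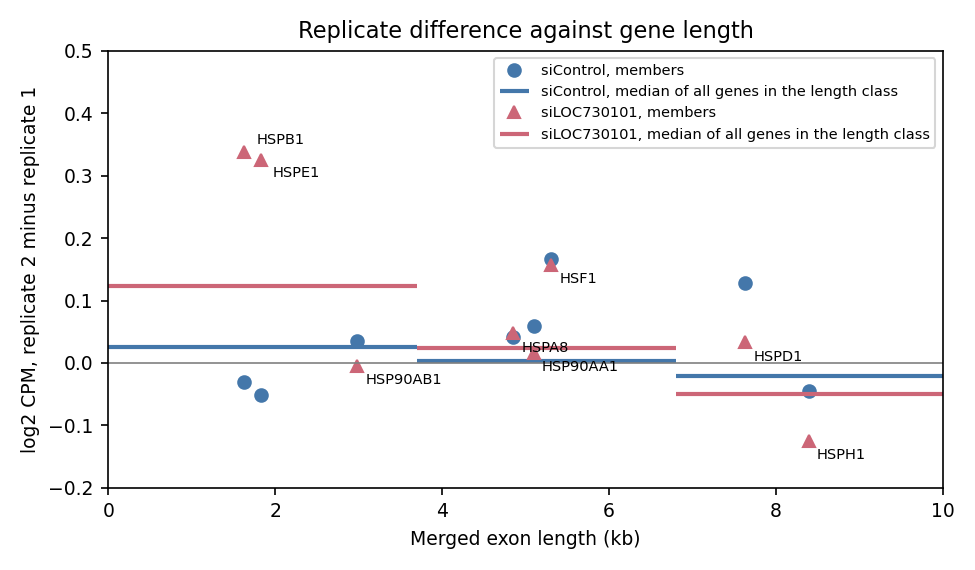
Log2 CPM of replicate 2 minus replicate 1 for each member against its merged exon length in kb (circles siControl, triangles siLOC730101), with lines for the median of all genes in 3 length classes. HSPB1 and HSPE1 sit at 0.34 and 0.32 in siLOC730101, above the 0.12 median of the short class there.

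HSF1 (chromosome 8, 144291591 to 144314720) encodes the regulator itself, whose activity is set mostly after translation. Its levels were 85.0 and 95.4 CPM in siControl and 83.8 and 93.5 CPM in siLOC730101. The 2 libraries numbered 1 were low and the 2 numbered 2 were high in both groups, and the groups overlapped. The log2 fold change was -0.02 (95% interval -0.22 to 0.17, adjusted p = 0.962, edgeR), and without siControl replicate 2 it was 0.06. No window of HSF1 had a copy elsewhere at any length. DGAT1, on the opposite strand, shares 2.58% of its exon length.

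Around the members, 100 other genes of protein folding were examined in 8 lists, of which 92 could be tested. In the edgeR test 1 rose, STUB1, and 0 fell, while 15 had an unadjusted p under 0.05. Over all genes tested, 0.284% were called in either direction and 10.8% had an unadjusted p under 0.05. Of the 92, 68 had estimates above 0 and the median was 0.08, beside -0.002 over all genes. Estimates also differed with exon length over all genes with a mean normalized count above 50, the median log2 fold change being 0.08 in the short class, 0.02 in the middle class and -0.03 in the long class. The part of length in the estimates of these lists was not tested.

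STUB1 encodes CHIP, the ubiquitin ligase that docks on HSP70 and HSP90 and marks their clients for degradation, and it stands in both the co-chaperone and the HSP70 regulator lists. It had 96.8 CPM in both siControl libraries and 121.5 and 159.9 CPM in siLOC730101, with no overlap. Its log2 fold change was 0.54 (SE 0.11, adjusted p = 0.0482, edgeR). Leaving out siLOC730101 replicate 2 lowered this to 0.32, and leaving out its replicate 1 raised it to 0.73. The adjusted p was 0.0576 with DESeq2 size factors and 0.0522 with upper-quartile factors, so the call depended on scaling, and over 13 alternatives the adjusted p ran from 5.25e-15 to 0.0576. Of its exon length, 42.5% is shared with JMJD8 on the opposite strand, and the counting command records no strand option. Reads from the pair cannot be told apart there.

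Of 20 other transcripts that heat induces through HSF1, 0 passed and 17 had estimates above 0 (median 0.10), beside 49.6% above 0 over all genes. They included the HSP90 activator AHSA1 at 0.22 (adjusted p = 0.330), ubiquitin UBB at 0.17 (adjusted p = 0.560) and the HSP70-HSP90 adaptor STIP1 at 0.13 (adjusted p = 0.572), by edgeR. DNAJB1 and BAG3, among the most heat-sensitive transcripts, were at 0.05 and -0.06. HSF1 regulators and other heat shock factors had 0 of 8 called (median 0.03). HSBP1L1, a relative of the HSF1-binding protein HSBP1, had the smallest p among them, with 30.9 and 32.4 CPM in siControl and 40.3 and 45.0 CPM in siLOC730101 (log2 fold change 0.43, adjusted p = 0.113, edgeR). SIRT1, a deacetylase that prolongs binding of HSF1 to DNA, was at -0.19 (adjusted p = 0.479) and HSF2BP, which binds HSF2, at -0.52 (adjusted p = 0.686).

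Of 18 HSP90 co-chaperones 1 was called, STUB1, beside 0.284% of all genes tested. Among the 18, 14 had estimates above 0 (median 0.14), CDC37L1 being at 0.35 (adjusted p = 0.235, edgeR). Of 13 nucleotide exchange factors and other HSP70 regulators, STUB1 was again the 1 called (median 0.03), with BAG1 at 0.29 (adjusted p = 0.274) and HSPBP1 at 0.17 (adjusted p = 0.523). The remaining HSP70, HSP110 and HSP90 genes had 0 of 13 called and a median of -0.03. The endoplasmic reticulum chaperones HSPA5 and HYOU1 were at -0.12 and -0.11, and the mitochondrial HSP90, TRAP1, at 0.15. Genes listed as small heat shock proteins, in part by symbol only, had 0 of 5 called (median 0.31), with HSPB11 at 0.31, HSPB8 at 0.12 and CRYAB at 0.08. That median is the value of HSPB11 itself, and both genes above it had low mean normalized counts, 36 and 18.

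Other mitochondrial chaperones and proteases had 0 of 16 called and a median of 0.08. GRPEL1, the nucleotide exchange factor of mitochondrial HSP70, was at 0.31 (adjusted p = 0.185), the protease subunit CLPP at 0.23 (adjusted p = 0.380) and the co-chaperone DNAJA3 at 0.22 (adjusted p = 0.300), by edgeR. The cytosolic chaperonin CCT with its partner prefoldin had 0 of 14 called and a median of 0.09. The prefoldin subunits PFDN6, PFDN2 and PFDN5 were at 0.40, 0.22 and -0.22.

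Several of these uncalled estimates rested on siLOC730101 replicate 2, the library in which HSPE1 and HSPB1 were also high. Without it the log2 fold changes were 0.11 for AHSA1, 0.05 for STIP1, 0.16 for BAG1, 0.08 for CLPP, 0.18 for PFDN6, 0.08 for PFDN2 and 0.03 for HSPB8. Without siLOC730101 replicate 1 they were 0.33 for AHSA1, 0.22 for STIP1, 0.42 for BAG1, 0.38 for CLPP, 0.60 for PFDN6, 0.35 for PFDN2 and 0.21 for HSPB8. UBB rested on other libraries, at 0.06 without siControl replicate 2 and 0.07 without siLOC730101 replicate 1. It was 0.31 without siControl replicate 1 and 0.27 without siLOC730101 replicate 2.

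**Figure D5:**
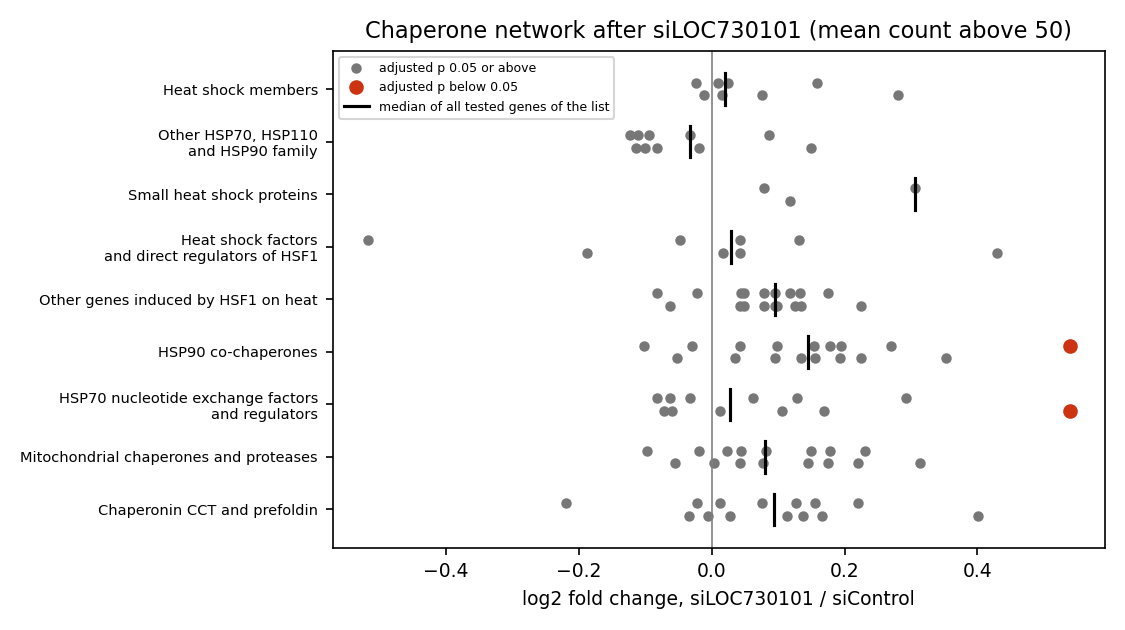
Log2 fold change (siLOC730101 over siControl) of tested genes with a mean normalized count above 50, 1 point per gene in the members and 8 lists, with a black bar at the median over all tested genes of each list. The red point, drawn in both lists that hold it, is STUB1 at 0.54, and it is the only gene there past an adjusted p of 0.05 in the edgeR fit.

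For the 3 members with the largest estimates, the genes with the most similar levels across the 4 libraries were sought by the root mean square distance of centred log2 CPM over 14232 genes with a mean normalized count above 50. Nearest to HSPE1 were ENSG00000279692, DCTN3 and FDXR, at 0.006, 0.010 and 0.011. Nearest to HSPB1 were MRPL55, MRPS18C and LSM4, at 0.006, 0.007 and 0.011. Nearest to HSPA8 were PSMD2 and ARHGAP45, at 0.003 and 0.004. These distances describe likeness across libraries only.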

How the data were processed

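The authors deposited 1 table of raw counts, whole reads per gene, from featureCounts 2.0.1 with the gencode 41 annotation of hg38 per the file headers. The submitters' processing notes name BWA for alignment whereas the study's methods name STAR and another build, so the aligner is uncertain. The recorded command shows no strand, pair or multi-mapping option, and 66.0% to 70.1% of counts from 1 to 20 were even. The table held 0 columns of other samples and 0 genes with no name. Genes were filtered with filterByExpr and tested with edgeR 4.0.16 (R 4.3.3; TMM scaling, legacy quasi-likelihood fit on all 4 libraries, group as the only term), with Benjamini-Hochberg adjustment over all genes tested and a threshold of 0.05. CPM values are TMM-scaled, DESeq2 1.42.0 was an alternative, and the fits were tested on simulated data. Replicates of each group differed by far more than counting noise (chi-square per degree of freedom 10.6 and 13.0). Depth is the sum of each library's counts. Intervals are 95%. The members, lists and tests were chosen with earlier results of these data known. Named genes are the members, LOC730101, the overlapping genes and most abundant processed copies of members, and, per list, genes past the threshold and then those with the largest fold change at a mean normalized count above 50, up to 3; DNAJB1 and BAG3, the neighbours of HSPA1A and the marker genes were named after their values were seen. Of the genes this rule selects, 2 are not reported here. Promoters and the microRNA come from RefSeq (GRCh38.p14), and transcripts, UTRs and repeated windows from the GRCh37 reference, whose coordinates are never mixed with those of GRCh38. Alternatives covered scaling, filtering, the test, the replicate block, halved counts and leaving out each library.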

Additional observations from a re-analysis of the deposited data

How the results depend on the processing

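The count of heat shock genes called stayed at 0 under the alternatives tried except an unadjusted p under 0.05 (1) and leaving out each library (0 to 2, the 2 being HSPE1 and HSPB1 without siLOC730101 replicate 1; a group left with 1 library is assumed to vary like the other group). The other folding genes called, 1 in the reported fit, were 0 with DESeq2 size factors, 0 with upper-quartile factors, 3 with no filter, 2 with DESeq2, 4 with the replicate block, 15 at an unadjusted p under 0.05 and 1 to 15 with each library left out (2 without siControl replicate 1, 15 without siLOC730101 replicate 1). All genes called, 55, became 93 by library size alone, 437 with no filter, 297 with DESeq2, 652 with the replicate block, 111 without the legacy fit, 146 with counts halved, 140 at an adjusted p under 0.1, 2094 unadjusted, and 137 to 1195 with a library left out (166 without siControl replicate 1, 137 without siControl replicate 2 or siLOC730101 replicate 2, 1195 without siLOC730101 replicate 1). The cause was not tested. Same-numbered samples did not deviate together across genes as a whole (correlation 0.029 over genes with a mean normalized count above 50). The labels do not say whether they were paired. The block changed no member's call. The members' median ran from 0.0067 to 0.060 and their summed CPM difference from -0.034% to 4.44% with a library left out. The median turned to -0.011 with upper-quartile factors and to -0.017 by library size alone. For the summed difference, scaling by library size gave -0.282%. STUB1 lost its call with DESeq2 size factors and upper-quartile factors (0.54 and 0.51). Signs near 0 turned for HSP90AA1 (-0.021 by upper-quartile factors, -0.028 by library size, -0.019 to 0.042 leaving out a library), HSP90AB1 (-0.016, -0.022, -0.0014 to 0.036), HSPH1 (-0.0054, -0.011, -0.030 to 0.083), and, leaving out a library, HSPB1 (-0.022 to 0.326), HSPD1 (-0.074 to 0.056), HSF1 (-0.107 to 0.064) and CRYAB (-0.110 to 0.255). Summing HSPA1A with HSPA1B could give no value, both being at 0, and adding processed copies or HSPE1-MOB4 changed no call. Adding copies brings back no read left out for fitting several positions. HSBP1L1 passed the threshold in 4 of 13 alternatives. With counts halved, 0 members were called.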
